A study of Mus musculus with 72 samples.

Results

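Hemoglobin and erythrocyte genes were followed through 72 mouse brain mRNA sequencing libraries by the rows of 5 genes, Hbb-bs, Hbb-bt, Hba-a1, Hba-a2 and Alas2, out of 35275 Ensembl gene rows in the deposited count table. The rows were found by their Ensembl identifiers through the symbols of the GRCm38 annotation. All 5 had reads in every library and passed the filter on low counts in every fit, so none is left out below. Hemoglobin is a tetramer of alpha and beta globin chains, each holding a heme that binds oxygen. Mature mouse red blood cells have no nucleus, and the globin transcripts they still carry come from their reticulocyte stage. Alas2 is the erythroid form of the enzyme that starts heme synthesis in the mitochondrion, and low globin expression has also been described in neurons and glia.

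The libraries came from C57BL/6 mice 7 months old, from the ipsilateral side of a mid-coronal section of the cerebrum. Stroke was modelled by 1 h of middle cerebral artery occlusion. Tissue was taken in 6 stages, namely sham, ischemia alone without reperfusion, and 3, 12, 24 or 72 h of reperfusion. Every stage was sampled under each of 4 feeding regimens. AL mice had free access to food, EOD mice alternated 24 h of fasting with 24 h of feeding, and IF12 and IF16 mice fasted for 12 or 16 h every day over 4 months. The length of the EOD schedule, the sex of the mice and the details of the sham operation are not stated in the labels. Each of the 24 groups held 3 libraries, 12 per stage and 18 per regimen, with totals of 16735707 to 24763161 counts. Whether the 3 libraries of a group are 3 different mice is not stated, so every p-value below rests on library-to-library spread, part of which may be technical. In bulk tissue, fewer red blood cells and less globin RNA per cell cannot be told apart, and the sources used here do not say whether the vessels were flushed of blood.

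The 4 globin genes lie in 2 clusters. In GRCm38 Hbb-bs (ENSMUSG00000052305) spans chr7:103826534-103828096 and Hbb-bt (ENSMUSG00000073940) chr7:103812524-103813996, both on the minus strand. Hba-a1 (ENSMUSG00000069919) spans chr11:32283511-32284465 and Hba-a2 (ENSMUSG00000069917) chr11:32296489-32297298, both on the plus strand. Each globin gene has 3 exons. Alas2 (ENSMUSG00000025270) spans chrX:150547375-150570638 on the plus strand and has 11 exons.

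The promoters of the genes are printed because the 5 genes are erythroid genes whose levels moved together in these libraries. Each sequence is the 120 bases just upstream of the RefSeq start site in GRCm38.p6, 5′ to 3′ on the gene's own strand. Capitals mark 4 motifs searched on both strands. The CACCC motif is the kind of element that KLF1 binds. The CCAAT motif is a common promoter box. For the TATA motif the letters ATATAA were searched. For the motif of GATA factors they were AGATAA. Where matches of different motifs overlap or adjoin, the capitals run together.
Hbb-bs, chr7:103827929-103828048, minus strand: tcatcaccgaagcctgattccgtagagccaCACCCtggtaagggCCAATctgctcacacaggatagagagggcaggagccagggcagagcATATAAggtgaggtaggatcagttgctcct
Hbb-bt, chr7:103813924-103814043, minus strand: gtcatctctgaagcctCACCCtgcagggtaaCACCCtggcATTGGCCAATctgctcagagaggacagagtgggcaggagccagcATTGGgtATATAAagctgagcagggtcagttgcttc
Hba-a1, chr11:32283552-32283671, plus strand: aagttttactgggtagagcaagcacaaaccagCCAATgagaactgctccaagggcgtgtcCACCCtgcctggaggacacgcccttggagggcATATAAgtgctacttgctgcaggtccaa
Hba-a2, chr11:32296372-32296491, plus strand: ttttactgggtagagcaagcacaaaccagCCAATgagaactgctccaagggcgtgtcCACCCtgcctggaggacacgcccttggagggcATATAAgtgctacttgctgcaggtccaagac
Alas2, chrX:150547297-150547416, plus strand: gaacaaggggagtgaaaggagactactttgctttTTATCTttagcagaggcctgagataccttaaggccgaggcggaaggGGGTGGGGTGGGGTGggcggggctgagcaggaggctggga

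All 4 globin windows held the CACCC motif, the CCAAT box and the TATA motif, which began 30 bases upstream of the start site in Hbb-bs, 29 in Hbb-bt, 28 in Hba-a1 and 31 in Hba-a2. The Alas2 window held 3 adjoining CACCC matches and 1 GATA match, all on the opposite strand, and neither of the other motifs. Of 32851 RefSeq promoter windows of the same length, 31.7% held the CACCC motif, 21.3% the CCAAT box, 4.47% the TATA motif and 4.36% the GATA motif. A match is a run of letters and not a measured binding site. The Hba-a1 and Hba-a2 windows are the same sequence shifted by 3 bases, with 247 of 247 aligned bases identical over the longer 250-base windows.

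The members of each pair are nearly the same transcript. The coding sequences of Hbb-bs and Hbb-bt were identical at 443 of 444 bases, and those of Hba-a1 and Hba-a2 at 428 of 429. Of all 100-base stretches of the reference transcripts, 62.6% of those of Hbb-bs also occurred in Hbb-bt and 54.8% of those of Hbb-bt in Hbb-bs. For the alpha pair the shares were 56.5% of Hba-a1 and 74.5% of Hba-a2. The counting rule is not given in the sources used here, so reads may have been split between the copies in a way that says nothing about either gene. Values are therefore also given for sums of the pairs and of all 4 globin rows.

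Neuron markers summed to 2452 to 6449 CPM in every library, as the tissue label implies, and globin reads were a small part of each. The 4 rows summed to between 922 and 8841 counts, with a median of 3670, or 0.00509 to 0.0409% of a library with a median of 0.0176%. Counts were expressed as CPM, each count relative to its library total after that total was adjusted with the trimmed mean of M values (TMM). On this scale the globin sum ran from 49.8 to 449 CPM with a median of 176 CPM, an 8.996-fold range. Per length, on the deposited FPKM scale, Hbb-bs was the most abundant member with 44.2 to 323 FPKM and a median of 142. Hba-a1 followed with a median of 74.7 FPKM and a range of 21.7 to 191, close to Hba-a2 with a median of 67.3 and a range of 17.3 to 173. Hbb-bt had a median of 18.04 FPKM and a range of 4.403 to 39.2. Alas2 was far lower, with a median of 2.31 FPKM, a range of 0.398 to 5.49, and only 9 to 137 reads per library with a median of 61.

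Differences between libraries of the same group held the largest share of the total sum of squares in all 5 members and in the globin sum. The shares are not divided by degrees of freedom, and the 48 within groups far exceed those of stage, regimen or their interaction. Their order therefore does not rank the sources of variation. For the log2 globin sum, differences between the 3 libraries of a group took 44.7% of the total sum of squares, stage 27.8%, the stage by regimen interaction 24.2% and regimen 3.36%. For Alas2 the within-group share was 53.6%, stage 17.6%, the interaction 25.9% and regimen 2.98%. Among the 4 single globin rows the within-group share ran from 43.2% for Hbb-bs to 48.9% for Hba-a1.

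The sham libraries had globin sums of 175, 212 and 178 CPM in AL, 187, 179 and 285 CPM in EOD, 144, 110 and 129 CPM in IF12, and 106, 127 and 119 CPM in IF16. After ischemia alone the values were 309, 293 and 199 CPM in AL, 245, 121 and 287 CPM in EOD, 124, 246 and 104 CPM in IF12, and 183, 159 and 191 CPM in IF16. At 3 h of reperfusion they were 244, 188 and 212 CPM in AL, 174, 385 and 162 CPM in EOD, 289, 283 and 218 CPM in IF12, and 214, 269 and 449 CPM in IF16. The 3 h libraries of IF12 and IF16 all lay above the sham libraries of their own regimen, while those of AL and EOD overlapped theirs.

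At 12 h the sums were 406, 120 and 116 CPM in AL, 183, 141 and 142 CPM in EOD, 93.8, 116 and 143 CPM in IF12, and 124, 84.4 and 122 CPM in IF16. At 24 h they were 167, 294 and 190 CPM in AL, 324, 136 and 205 CPM in EOD, 242, 193 and 199 CPM in IF12, and 291, 156 and 49.8 CPM in IF16. At 72 h they were 56.2, 69.5 and 93.2 CPM in AL, 101, 222 and 146 CPM in EOD, 170, 59.1 and 124 CPM in IF12, and 181, 169 and 203 CPM in IF16. Replicate 1 of AL at 12 h, at 406 CPM, stood far above the other libraries of its stage, and replicate 3 of IF16 at 24 h held the lowest sum of all 72. The 72 h AL libraries all lay below every sham library. Replicate 1 of AL at 12 h and 4 libraries with a low share of Hbb-bt, named with the split of the beta pair, are called the libraries that stand apart, and results were also fitted without these 5. They were picked after seeing the data, from the members' own values, so calls gained without them lend no support.

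**Figure D1:**
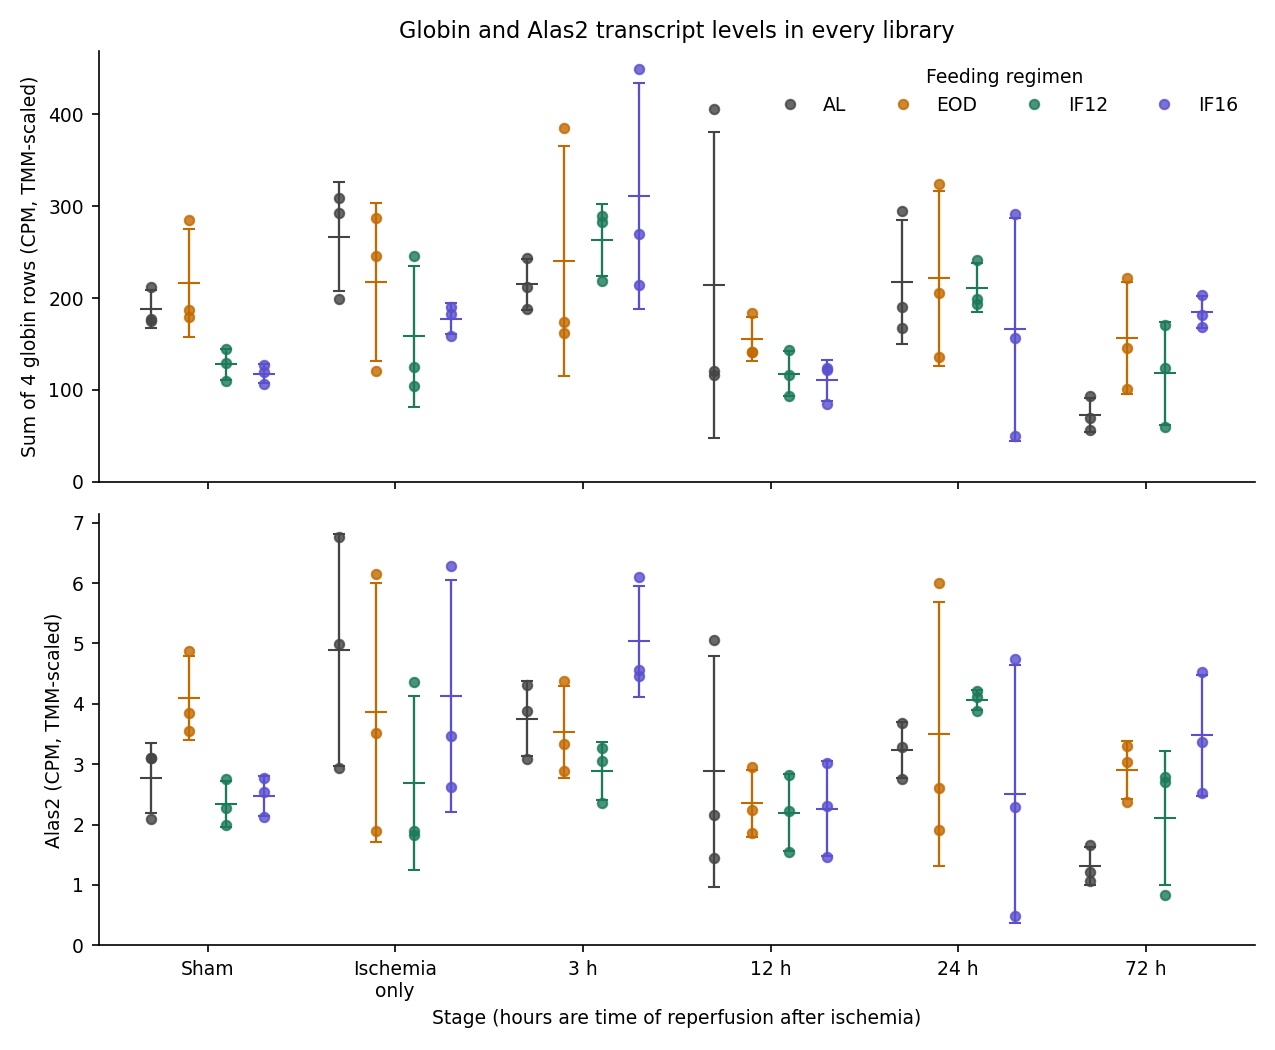
Summed level of the 4 globin rows (top) and level of Alas2 (bottom) in TMM-scaled CPM, by stage and feeding regimen. Points are single libraries, and horizontal marks and bars give the mean and SD of the 3 libraries of a group. The groups of IF16 at 3 h and AL at 72 h mark the top and the bottom of the group means in both panels.

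Ordered by their means, the 24 groups ran from 311 ± 123 CPM (SD, n = 3) in IF16 at 3 h, 267 ± 59.2 in AL after ischemia alone and 263 ± 39.2 in IF12 at 3 h down to 110 ± 22.4 in IF16 at 12 h and 72.9 ± 18.7 in AL at 72 h. Of the 23 steps between neighbours in that order, 21 were smaller than the larger SD of the pair of groups. The exceptions were the step from EOD at 12 h to the IF12 sham group and the step from IF16 at 12 h down to AL at 72 h. Sorting by the mean itself makes such steps small. The count therefore shows only that ranks of neighbours are loose, and says nothing about groups farther apart. For Alas2 the order also ran from IF16 at 3 h, at 5.03 ± 0.922 CPM, to AL at 72 h, at 1.31 ± 0.310 CPM, and all 23 steps were smaller than the larger SD.

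The first comparison asked how each stage of stroke differed from sham, with the 4 regimens weighted equally. All 4 globin genes rose at 3 h of reperfusion, and no member passed the test after ischemia alone or at 12, 24 or 72 h. Hbb-bs, the main adult beta globin here, ran from 44.4 to 138 CPM in the 12 sham libraries with a median of 70.2, and from 78.2 to 195 CPM at 3 h with a median of 113. The stages overlapped, with the lowest 3 h libraries inside the range of sham. Its fold change was 1.66, a log2 difference of 0.73 ± 0.21 (SE), with an adjusted p of 0.00875 by edgeR's quasi-likelihood test with Benjamini-Hochberg adjustment over 17268 genes.

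Hba-a1 ran from 29.97 to 68.3 CPM in sham with a median of 34.6, and from 35.0 to 125 CPM at 3 h with a median of 60.6. Hba-a2 ran from 21.2 to 54.3 CPM in sham with a median of 28.1, and from 23.6 to 99.7 CPM at 3 h with a median of 46.9. The ranges of the 2 alpha genes overlapped between the stages, and their log2 differences were 0.67 ± 0.22 and 0.68 ± 0.22, with adjusted p of 0.0200 and 0.0204 in the same edgeR test. Hbb-bt ran from 7.10 to 24.2 CPM in sham with a median of 12.7, and from 12.0 to 29.7 CPM at 3 h with a median of 16.6. Its log2 difference was 0.62 ± 0.22 with an adjusted p of 0.0342 in edgeR. Alas2 ran from 1.998 to 4.88 CPM in sham with a median of 2.76, and from 2.35 to 6.10 CPM at 3 h with a median of 3.61. It did not pass, at a log2 difference of 0.39 ± 0.23 and an adjusted p of 0.226 in edgeR. Of 7 alternative fits, 1 called Alas2 higher at 3 h, so its lack of a call depends on the method.

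In all, 4 of the 5 members were called higher at 3 h, where 10.7% of all 17268 genes tested were called higher and 21.8% were called in either direction. The median log2 difference of the 5 members was 0.67, against -0.01 for all genes tested. The 4 globin calls rest on few libraries. Without replicate 2 of EOD at 3 h (globin sum 385 CPM) only Hbb-bs remained called, with adjusted p of 0.0704 for Hba-a1, 0.0716 for Hba-a2 and 0.0973 for Hbb-bt in edgeR. Without replicate 3 of IF16 at 3 h (449 CPM) the same 3 genes had adjusted p of 0.0517, 0.0537 and 0.0784 in edgeR. The Hbb-bt call was lost on leaving out any of 6 further libraries, namely replicate 2 of IF12 at 3 h and, of the sham libraries, AL replicate 3, EOD replicates 1 and 2, IF12 replicate 2 and IF16 replicate 1, with adjusted p of 0.0533 to 0.0637 in edgeR. With the pairs summed in the count table before fitting, both the beta pair and the alpha pair were called higher.

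At the other stages the members lay on either side of sham with no call in edgeR. After ischemia alone, where 0.116% of genes were called higher and 0.0232% lower, 0.139% in all, all 5 log2 differences were positive, from 0.11 for Hbb-bt to 0.43 for Hba-a2, with adjusted p of 0.878 or more. Alas2 was uneven there, with 6.77, 4.99 and 2.93 CPM in AL, 3.52, 1.89 and 6.16 in EOD, 1.90, 4.36 and 1.82 in IF12 and 3.47, 2.62 and 6.29 in IF16, and its SD over the 12 libraries was 1.80 CPM against 0.851 in sham. At 12 h, with 21.6% of genes called and 9.82% called lower, all 5 differences were negative, from -0.30 for Hbb-bt to -0.09 for Hbb-bs.

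At 24 h, with 49.8% of all genes called, Hbb-bs had a log2 difference of 0.46 ± 0.21 with an adjusted p of 0.0582, and Hbb-bt one of 0.01 ± 0.22 with an adjusted p of 0.983, both in edgeR. The difference between the 2 beta globin genes was not tested, and the share of Hbb-bt in the pair was low in 2 of the 24 h libraries, as given with the split of the pair. Without the 5 libraries that stand apart the 2 genes had 0.38 and 0.13, with adjusted p of 0.132 and 0.617 in edgeR. Of 6 alternative fits, 1 called Hbb-bs higher at 24 h. So did 5 of the 24 fits that left out 1 library, with adjusted p of 0.0172 to 0.218 over the 24 in edgeR. Its lack of a call therefore depends on the method and on single libraries. At 72 h, with 27.2% of genes called, all 5 were negative, from -0.53 ± 0.22 for Hbb-bt, with an adjusted p of 0.0664 in edgeR, to -0.30 for Hba-a1. Without the 5 libraries that stand apart Hbb-bt was called lower at 72 h, at -0.53 and an adjusted p of 0.0405 in edgeR. That set was picked from the members' own values, so this call lends no support. Over the 25 member tests of this comparison 6 reached an unadjusted p under 0.05, and the share of all genes that did so is not given here. DESeq2 made 5 calls, all higher.

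**Figure D2:**
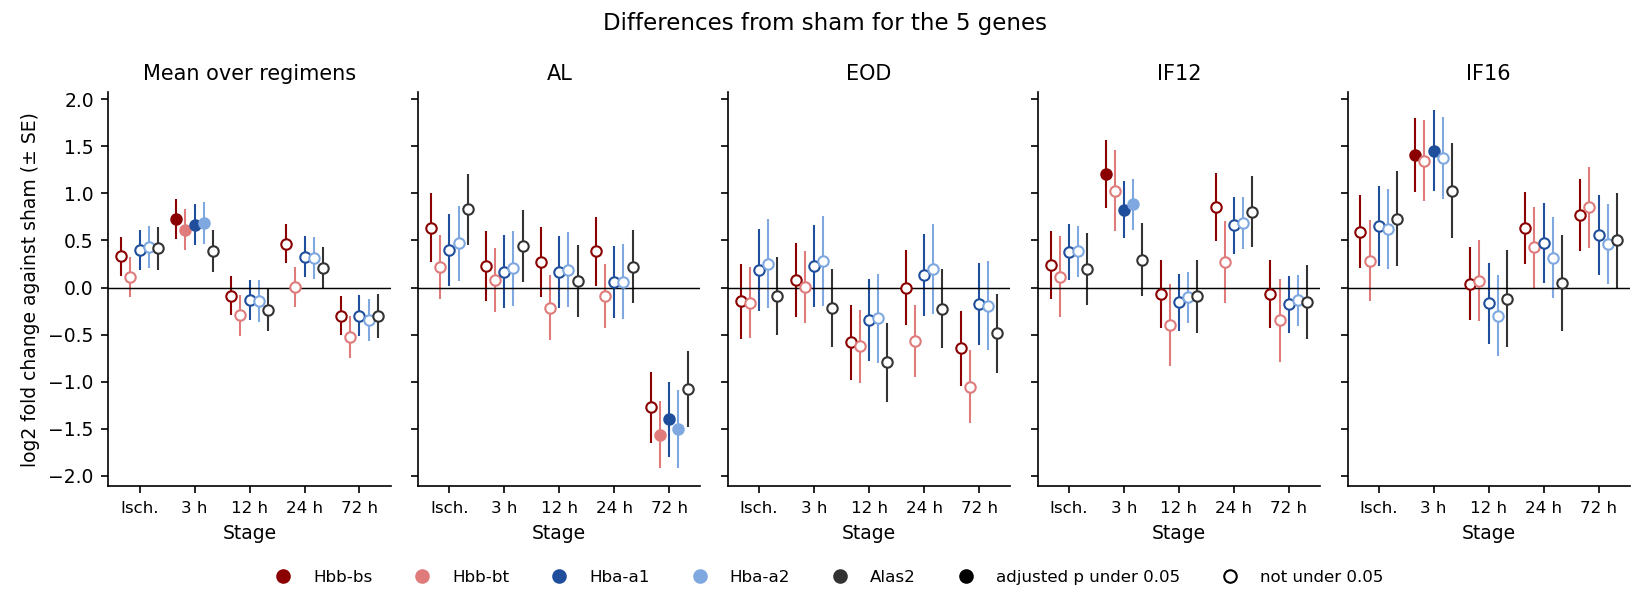
Log2 fold change of the 5 members against sham with its SE, for the mean over regimens and within each regimen, at the 5 stages after ischemia. Filled points have an adjusted p under 0.05, with 4 at 3 h in the mean over regimens, 3 below 0 in AL at 72 h, 3 above 0 in IF12 at 3 h and 2 above 0 in IF16 at 3 h.

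Within regimens, each stage was set against sham using the 18 libraries of the regimen alone. Of the 4 globin genes, 3 rose at 3 h in IF12 mice, 2 rose at 3 h in IF16 mice and 3 fell at 72 h in AL mice, which made 8 calls among 100 member tests. In IF12 mice Hbb-bs stood at 72.1, 45.8 and 56.8 CPM in sham and at 146, 143 and 115 CPM at 3 h. Hba-a2 stood at 25.7, 23.8 and 28.3 CPM in sham and at 54.7, 52.1 and 37.3 CPM at 3 h, and Hba-a1 at 34.7, 31.4 and 34.4 CPM against 65.2, 64.9 and 49.2 CPM. For all 3 genes every 3 h library lay above every sham library. The log2 differences were 1.20 ± 0.36 for Hbb-bs, 0.88 ± 0.27 for Hba-a2 and 0.83 ± 0.30 for Hba-a1, with adjusted p of 0.0211, 0.0236 and 0.0483 by edgeR's quasi-likelihood test.

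Hbb-bt, at 11.9, 9.03 and 9.72 CPM in IF12 sham and 22.9, 23.0 and 16.9 CPM at 3 h, had a log2 difference of 1.03 ± 0.43 and an adjusted p of 0.0819 in edgeR. Alas2 stood at 2.75, 2.27 and 1.998 CPM in sham and 3.27, 3.05 and 2.35 CPM at 3 h, with overlapping groups, a log2 difference of 0.30 ± 0.38 and an adjusted p of 0.585 in edgeR. The 3 of 5 members called higher in IF12 at 3 h stand beside 13.4% of 16426 genes called higher there. Leaving out any 1 of the 6 libraries lost the Hba-a1 call, with adjusted p of 0.0663 to 0.144 in edgeR, and so did leaving out the 5 libraries that stand apart, at 0.0586. With all 72 libraries in the fit the calls of Hba-a1 and Hba-a2 were lost, at 0.158 and 0.141 in edgeR. Hbb-bs was lost without replicate 2 or 3 of sham or replicate 2 of 3 h, with adjusted p of 0.0977, 0.0712 and 0.0588 in edgeR. Hba-a2 was lost without replicate 2 or 3 of sham or replicate 1 or 2 of 3 h, with adjusted p of 0.0922, 0.0557, 0.0694 and 0.0726 in edgeR.

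In IF16 mice Hbb-bs stood at 44.4, 56.9 and 54.1 CPM in sham and 99.4, 116 and 195 CPM at 3 h. Hba-a1 stood at 29.97, 33.4 and 31.2 CPM in sham and 56.2, 76.2 and 125 CPM at 3 h. The groups did not overlap for either gene, and replicate 3 of 3 h was the highest library of all 72 for both. Hbb-bs had a log2 difference of 1.41 ± 0.39 with an adjusted p of 0.0354, and Hba-a1 one of 1.46 ± 0.43 with an adjusted p of 0.0459, both in edgeR. Hba-a2, at 24.9, 27.9 and 25.3 CPM against 43.1, 58.7 and 99.7 CPM, had a log2 difference of 1.38 ± 0.43 and an adjusted p of 0.0563 in edgeR.

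Hbb-bt, at 7.10, 8.88 and 8.93 CPM in IF16 sham against 15.1, 18.3 and 29.7 CPM, had one of 1.35 ± 0.43 and an adjusted p of 0.0597 in edgeR. Alas2 stood at 2.12, 2.77 and 2.54 CPM in sham and 4.55, 4.45 and 6.10 CPM at 3 h without overlap, with a log2 difference of 1.03 ± 0.50 and an adjusted p of 0.197 in edgeR. Thus 2 of 5 members were called higher in IF16 at 3 h, where 4.56% of 16355 genes were called higher. The Hba-a1 call was lost on leaving out any 1 of the 6 libraries, with adjusted p of 0.0535 to 0.175 in edgeR, and without the 5 libraries that stand apart, at 0.0591. The Hbb-bs call was lost without any sham library, with adjusted p of 0.0937 to 0.114, and without replicate 1 or 3 of 3 h, at 0.0552 and 0.142 in edgeR.

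At the same time in AL mice the 5 log2 differences were 0.08 to 0.44, with 84.4 to 110 CPM of Hbb-bs at 3 h and 68.4 to 98.8 CPM in sham. In EOD mice they were -0.22 to 0.28, with Hbb-bs at 78.2, 184 and 88.5 CPM at 3 h and 86.2, 107 and 138 CPM in sham. No member was called in either regimen, but few genes of any kind were, with 6 called in AL and 9 in EOD at 3 h. The rise at 3 h was not shown to differ between regimens. The difference between the 3 h responses of IF16 and AL mice was 1.28 ± 0.61 on the log2 scale for Hba-a1 and 1.18 ± 0.59 for Hbb-bs, with adjusted p of 0.256 and 0.279 in edgeR. For IF12 against AL it was 0.67 ± 0.61 for Hba-a1 and 0.99 ± 0.59 for Hbb-bs, with adjusted p of 0.497 and 0.273 in edgeR, where 7.57% of genes were called, 2.66% higher and 4.91% lower.

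In AL mice at 72 h, 3 of the 4 globin genes fell below sham. Hbb-bt stood at 13.6, 15.5 and 13.6 CPM in sham and 3.52, 4.23 and 6.69 CPM at 72 h. Hba-a2 stood at 32.6, 42.0 and 42.0 CPM in sham and 11.02, 12.8 and 17.5 CPM at 72 h, and Hba-a1 at 44.1, 55.4 and 53.7 CPM against 14.99, 18.6 and 24.7 CPM. No group overlapped its sham group for these genes. The log2 differences were -1.57 ± 0.36 for Hbb-bt, -1.50 ± 0.41 for Hba-a2 and -1.40 ± 0.40 for Hba-a1, with adjusted p of 0.0141, 0.0441 and 0.0499 in edgeR. These correspond to 0.338, 0.353 and 0.379 of the sham level.

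Hbb-bs, at 84.8, 98.8 and 68.4 CPM in AL sham and 26.7, 33.8 and 44.3 CPM at 72 h, also showed no overlap but missed the threshold, at -1.27 ± 0.38 and an adjusted p of 0.0639 in edgeR. Alas2 stood at 2.10, 3.10 and 3.10 CPM in sham and 1.21, 1.07 and 1.66 CPM at 72 h, with -1.07 ± 0.40 and an adjusted p of 0.164 in edgeR. Only 0.675% of 16452 genes were called lower in AL mice at 72 h, and 3 of the 5 members were among them, while 4.45% were called higher. The calls of Hba-a1 and Hba-a2 were lost on leaving out any 1 of the 6 libraries, with adjusted p of 0.0932 to 0.149 and 0.0798 to 0.131 in edgeR, and that of Hba-a1 also with DESeq2 size factors, at 0.0518. The Hbb-bt call was lost without replicate 2 of sham, at 0.0575, or replicate 2 of 72 h, at 0.0515 in edgeR. Without the 5 libraries that stand apart, of which 2 are AL libraries of other stages, all 5 members were called lower in edgeR, with adjusted p of 0.00601 for Hbb-bs and 0.0456 for Alas2. Those libraries were picked from the members' own values, so the calls added in that fit lend no support. Of 7 alternative fits, that one included, 4 called Hbb-bs lower, so its lack of a call depends on the method. None of the 6 fits that left out 1 library called it. For Alas2, 1 of 8 alternative fits made a call, namely the fit without the 5 libraries.

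At 72 h the other regimens had no member call. The log2 differences were -1.06 to -0.18 in EOD, -0.35 to -0.06 in IF12 and 0.46 to 0.85 in IF16 mice. The contrast of IF16 with AL was the widest, with Hbb-bt at 16.1, 13.1 and 15.4 CPM in IF16 and 3.52, 4.23 and 6.69 CPM in AL at 72 h, and 7.10, 8.88 and 8.93 CPM against 13.6, 15.5 and 13.6 CPM in sham. IF16 libraries were thus the lower ones in sham and the higher ones at 72 h, with no overlap in either. The difference between the 72 h responses was 2.40 ± 0.63 on the log2 scale for Hbb-bt, with an adjusted p of 0.157 by edgeR's quasi-likelihood test. It was 2.03 ± 0.60 for Hbb-bs, 1.95 ± 0.63 for Hba-a2, 1.94 ± 0.62 for Hba-a1 and 1.56 ± 0.66 for Alas2, with adjusted p of 0.234 to 0.408 in edgeR. No gene of the table was called for this difference.

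Over all 75 such single interaction tests edgeR called 0, with 10 at an unadjusted p under 0.05, and DESeq2 called 0. The joint test of any stage by regimen interaction called none of the 5 members, at a lowest adjusted p of 0.183 for Hbb-bs, and 0.0984% of genes. An unadjusted p under 0.05 was seen for 1 of the 5 members. The shares of all genes at that level in the single and joint interaction tests are not given here. DESeq2 made 0 calls.

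The next comparison asked how fasting differed from free feeding. Averaged over the 6 stages, mean globin sums were 196 ± 90.3 CPM in AL, 201 ± 76.7 in EOD, 166 ± 67.5 in IF12 and 178 ± 90.8 in IF16 (SD, n = 18). The spread within a regimen was larger than any difference between regimen means. That spread pools the 6 stages and so holds differences between stages, while the tests use the spread within groups. The 15 log2 differences from AL ran from -0.24 for Hba-a1 in IF12 to 0.26 for Hbb-bt in EOD, with SEs of 0.17 to 0.19. edgeR called 0 of 15 and none reached an unadjusted p under 0.05, while DESeq2 also called 0. The share of all genes called was 0% for EOD and IF12 and 0.00579% for IF16.

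Within single stages edgeR called 0 of 90 member tests, with 25 at an unadjusted p under 0.05, and DESeq2 called 3, all lower. The share of all genes under 0.05 over the same tests is not given here, so the 25 cannot be read as particular to the members. The smallest adjusted p were in sham, where IF16 libraries had less globin than AL libraries. Hbb-bt, at the values given above, had a log2 difference of -0.79 ± 0.18 with an adjusted p of 0.0645, Hba-a1 one of -0.71 ± 0.19 with 0.0665 and Hbb-bs one of -0.71 ± 0.20 with 0.0680 in edgeR. Alas2 differed less, at -0.18 ± 0.22 with an adjusted p of 0.597 in edgeR. No gene of any kind was called for IF16 against AL in sham, although 5100 of 15981 had an unadjusted p under 0.05.

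IF12 sham libraries were also lower than AL, with log2 differences of -0.61 to -0.48 for the 4 globin genes, -0.24 for Alas2, and adjusted p of 0.426 or more in edgeR. EOD sham libraries were not lower, with differences of -0.04 to 0.56, the largest for Alas2 at 3.56, 3.85 and 4.88 CPM against 2.10, 3.10 and 3.10 in AL. In the sham comparison of IF16 with AL, 1 library set the calls. Without replicate 3 of AL, Hbb-bt, Hbb-bs and Hba-a1 were called lower, with adjusted p of 0.0141, 0.0145 and 0.0363 in edgeR, together with 4735 of 16238 genes, where 0 were called with it. DESeq2 called the same 3 genes lower with all libraries, with adjusted p of 0.00324, 0.0116 and 0.00924. The share of all genes that DESeq2 called there is not given here.

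At 72 h the same comparison ran the other way, with IF16 above AL by 1.27 ± 0.40 (Hba-a1) to 1.65 ± 0.44 (Hbb-bt) on the log2 scale, but every adjusted p was 0.768 in edgeR. No gene was called, with 855 of 16177 at an unadjusted p under 0.05. With only these groups in the fit all 4 globin genes were called higher, with adjusted p of 0.0431 to 0.0458 in edgeR, and with all 72 libraries Hbb-bt was, at 0.0299. The shares of all genes called in these alternative fits are not given here, so whether the added calls are particular to globin cannot be read from them. The 72 h AL group enters this comparison and that with sham alike.

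The split of reads within the near-identical pairs was steady for the alpha pair and uneven for the beta pair. Hba-a2 took 38.1 to 48.5% of the alpha counts with a median of 43.8%, and its lowest share was in replicate 2 of the EOD sham group. Hbb-bt took a median of 13.6% of the beta counts, with 68 libraries between 9.39 and 16.6%. In 4 libraries the share was between 5.04 and 5.79%. They were replicate 1 of EOD at 24 h, at 5.04% (95% Wilson interval 4.37 to 5.81, 180 of 3569 counts), replicate 1 of AL after ischemia alone, at 5.70%, replicate 1 of IF16 after ischemia alone, at 5.77%, and replicate 2 of IF12 at 24 h, at 5.79%.

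In AL after ischemia alone, Hbb-bs was highest in that replicate, at 154 CPM against 140 and 95.8 CPM, while Hbb-bt was lowest, at 9.33 CPM against 24.4 and 15.5 CPM. In EOD at 24 h Hbb-bs stood at 159 CPM in that replicate against 67.6 and 105 CPM, and Hbb-bt at 8.43 CPM against 12.5 and 17.1 CPM. Low Hbb-bt shares thus came with high or middling Hbb-bs. Such intervals cover counting error only, as PCR copies are not independent molecules. At 3 h, the stage with the member calls averaged over regimens, the share stayed between 12.8 and 14.6% in all 12 libraries. None of the low shares was at 72 h, the stage of the member calls in AL mice. Whether a split of reads by the counting or a difference between the mice set these shares was not tested.

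**Figure D3:**
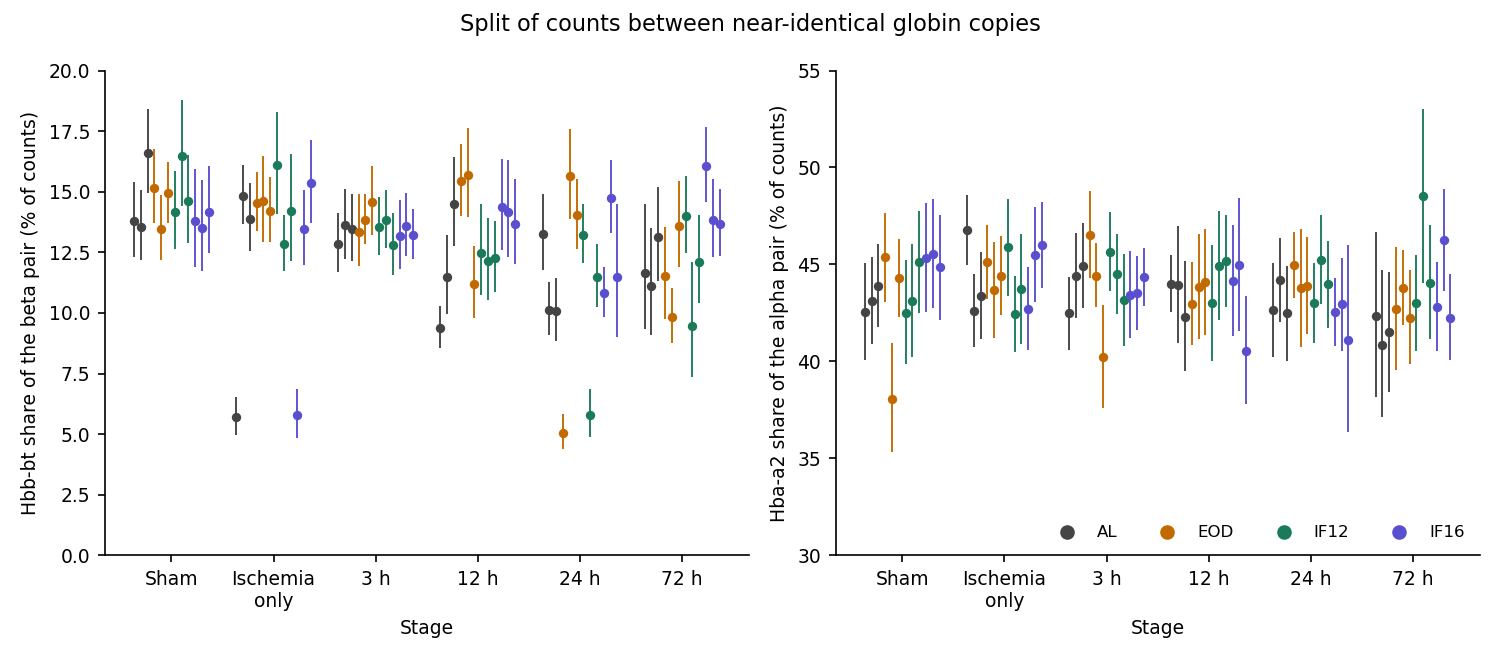
Share of the beta globin counts assigned to Hbb-bt (left) and of the alpha globin counts assigned to Hba-a2 (right) in percent for every library, by stage, with 95% Wilson intervals as bars. The right axis starts at 30%. The 4 libraries at 5.04 to 5.79% stand below all others on the left, and shares on the right stay between 38.1 and 48.5%.

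The balance of alpha to beta also varied. Alpha rows took 31.1 to 56.4% of the 4 globin counts with a median of 45.6%. The lowest was replicate 2 of the EOD sham group, with a Wilson interval of 29.7 to 32.7%, and replicate 3 of EOD at 3 h was next, at 36.1%. The highest was replicate 1 of IF12 after ischemia alone, with an interval of 54.6 to 58.3%. The medians of the stages lay between 43.4 and 46.8%.

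Alas2 followed the globin sum from library to library. Over the 72 libraries the log2 levels had a Pearson correlation of 0.87 and a Spearman correlation of 0.85. Without the 2 libraries farthest from the median globin sum, replicate 3 of IF16 at 24 h and replicate 1 of AL at 72 h, the Pearson value was 0.85, and for deviations from the group means it was 0.86. These are descriptions over libraries that share groups and a scaling step. Between single members the Pearson values ran from 0.72 for Hbb-bt with Alas2 to 0.99 for Hba-a1 with Hba-a2, a pair that shares reads. The library with the least globin, replicate 3 of IF16 at 24 h, also had the least Alas2, at 0.487 CPM from 9 reads.

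Alas2 did not keep a fixed ratio to globin. Per 1000 globin counts there were 9.76 to 33.0 Alas2 counts with a median of 16.6. The lowest ratio, in replicate 3 of IF16 at 24 h, rests on the fewest Alas2 reads of any library. Counting error of these ratios was not estimated. The highest ratios were in replicate 3 of IF16 after ischemia alone, at 33.0, and replicate 1 of EOD at 72 h, at 30.1, where the globin sums were 191 and 101 CPM. In IF12 at 3 h, where 3 globin genes rose, the ratio was 10.8 to 11.3 in all 3 libraries.

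**Figure D4:**
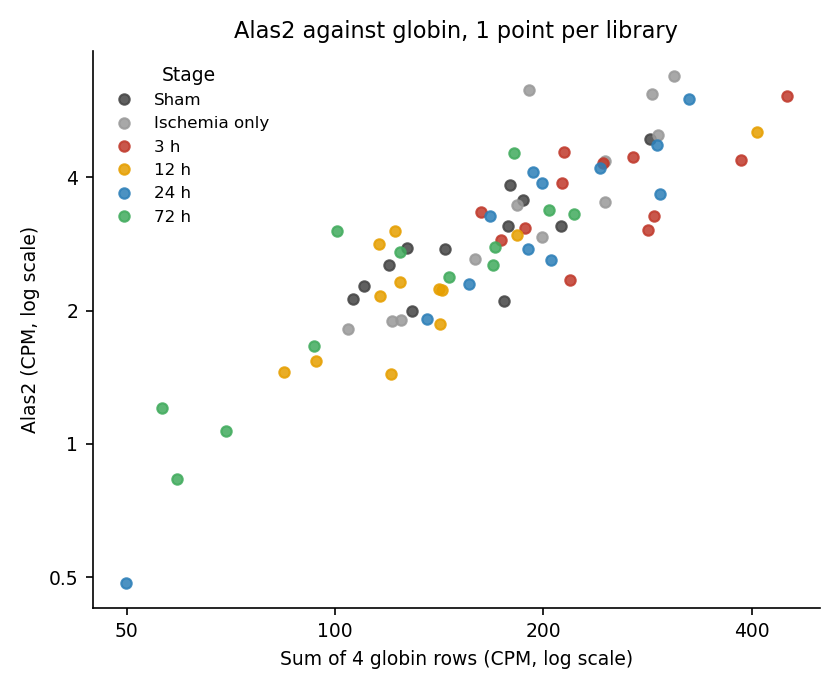
Alas2 level against the summed level of the 4 globin rows, both in TMM-scaled CPM on log axes, with 1 point per library coloured by stage. Points run from 49.8 CPM of globin with 0.487 CPM of Alas2 to 449 CPM of globin with 6.10 CPM of Alas2.

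Outside the members the genes most like the globin sum over the 72 libraries, by Pearson correlation of log2 CPM, were Pdgfa (0.62), Rnd1 (0.62), Hsf4 (0.60), Dusp28 (0.60), Trim41 (0.60), Pfdn2 (0.60), Plekhm2 (0.59), Arhgdig (0.58), Camk2n2 (0.58) and Ndrg1 (0.58). Alas2, which is not part of the sum, had 0.87, and 85 of the other genes exceeded 0.5. For deviations from group means Hsf4, a heat shock transcription factor, had 0.71 and the other 9 had 0.44 to 0.59. Correlations this size over libraries that share stages are a description only.

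Other erythroid genes were close to absent. Slc4a1, the band 3 anion exchanger of the red cell membrane, had 341 reads in all 72 libraries together. Epb42 (protein 4.2) had 32, Hemgn (hemogen) 10 and Rhag (Rh-associated glycoprotein) 7, while Icam4 had 0. A count of 0 in a library allows up to 3 counts. Of these, Slc4a1 alone passed the filter, and its log2 difference at 3 h was 0.33 ± 0.36 with an adjusted p of 0.557 in edgeR, from 0.189 ± 0.112 CPM in sham to 0.232 ± 0.149 CPM at 3 h (SD, n = 12). On these few reads its correlation with the globin sum over the 72 libraries was 0.44, and 0.35 for deviations from group means. The summed level of the erythrocyte markers outside the members had a median of 0.223 CPM in sham and 0.263 CPM at 3 h. In AL mice it ran from 0.210 to 0.423 CPM in sham and from 0.0503 to 0.131 CPM at 72 h, which rests on few reads. In IF12 mice it ran from 0.0932 to 0.227 CPM in sham and 0.105 to 0.473 CPM at 3 h, and in IF16 mice from 0.205 to 0.231 and from 0.256 to 0.481 CPM.

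The transcription factor of erythroid precursors Gata1 had 11 reads and its target Gfi1b 7 over all libraries. Klf1, which drives adult beta globin in erythroid cells, had 372 reads and was found in every library. Embryonic globins were at or near 0, with 0 reads for Hbb-bh0, Hbb-bh1 and Hbb-bh2, 1 for Hba-x and 37 for Hbb-y in all 72 libraries together. Membrane skeleton genes that brain cells also use were far higher, with Sptb at 126 to 342 CPM and Dmtn at 229 to 595 CPM.

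Among the other globins, 6 of 13 list entries were tested. Ngb, the neuronal globin neuroglobin, fell at 24 h from 11.5 ± 5.70 CPM in sham to 6.58 ± 3.55 CPM (SD, n = 12), by 0.77 ± 0.25 on the log2 scale with an adjusted p of 0.00819 in edgeR. It was the only call of that list at the 5 stages.

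Genes of heme synthesis other than Alas2 moved in both directions. Of 14 tested, 2 were called higher and 2 lower at 3 h, 2 and 3 at 12 h, 3 and 2 at 24 h, and 3 and 1 at 72 h, with list medians between -0.05 and 0.08 where the medians of all genes lay between -0.01 and 0.01. Of all genes, 21.8%, 21.6%, 49.8% and 27.2% were called in either direction at these stages, in order. Slc25a38, the mitochondrial glycine importer that feeds ALA synthase, rose at 24 h from 21.3 ± 1.81 to 31.8 ± 7.70 CPM, by 0.55 ± 0.10 on the log2 scale (adjusted p 6.36e-06 in edgeR). Ppox, the enzyme before ferrochelatase, fell by 0.41 ± 0.09 at 12 h. Clpx, a mitochondrial unfoldase that acts on ALA synthase, rose by 0.36 ± 0.07 at 12 h.

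Of 12 iron genes tested, 0 were called higher and 3 lower at 3 h, 1 and 2 at 12 h, 6 and 2 at 24 h, and 5 and 2 at 72 h, where 21.8%, 21.6%, 49.8% and 27.2% of all genes were called in either direction. Ftl1, the ferritin light chain that stores iron, rose at 24 h from 379 ± 73.0 to 819 ± 280 CPM, by 1.08 ± 0.18 on the log2 scale. Trf (transferrin) rose by 1.43 ± 0.24 and Steap3, a ferrireductase, by 1.27 ± 0.22 at 72 h. Slc40a1, the iron exporter ferroportin, fell by 0.74 ± 0.11 at 24 h.

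Of 18 erythrocyte membrane genes 11 were tested, with 2 called higher and 1 lower at 3 h, 0 and 2 at 12 h, 3 and 5 at 24 h, and 1 and 2 at 72 h. Slc2a1, the glucose transporter GLUT1 that is also abundant in brain endothelium, rose at 3 h from 159 ± 23.9 to 298 ± 48.4 CPM, by 0.90 ± 0.13 (log2). Ermap, a red cell surface protein, fell by 1.18 ± 0.21 at 12 h from 1.01 CPM in sham, and Gypc (glycophorin C) rose by 1.05 ± 0.23 at 72 h. Rhd, a red cell blood group protein, rose by 0.70 ± 0.28 at 24 h from 0.206 CPM in sham (adjusted p 0.0313 in edgeR). Of 20 reticulocyte and erythroid cytosol entries 13 were tested, with 3 called higher and 0 lower at 3 h, 1 and 1 at 12 h, 6 and 1 at 24 h, and 4 and 0 at 72 h. Beside both lists, 21.8%, 21.6%, 49.8% and 27.2% of all genes were called in either direction at these stages, in order.

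In that list Rsad2 and Isg20, which interferon induces in many cells, rose by 2.85 ± 0.33 and 1.87 ± 0.26 at 24 h. Nfe2, a transcription factor of erythroid and megakaryocyte cells, rose by 1.82 ± 0.64 at 24 h from 0.0681 CPM in sham, and Tent5c, an RNA poly(A) polymerase, by 1.64 ± 0.19 at 72 h. Of 10 erythroid regulators tested, 2 were called higher and 0 lower at 3 h, 1 and 0 at 12 h, 3 and 1 at 24 h, and 2 and 0 at 72 h. The shares of all genes called in either direction were 21.8%, 21.6%, 49.8% and 27.2%, in the same order. Tal1, a factor shared by erythroid and endothelial cells, rose by 0.79 ± 0.19 and Bach1, a heme-sensing repressor, by 0.69 ± 0.14 at 24 h. The oxygen-regulated factors moved little, with Hif1a up by 0.24 ± 0.07 at 72 h and Epas1 down by 0.19 ± 0.07 at 24 h.

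Among genes of heme and hemoglobin clearance, the highest mean of the leading gene was at 24 h. Hmox1, the heme oxygenase that degrades heme, had 3.76 ± 0.668 CPM in sham and 98.5 ± 55.7 CPM at 24 h (SD, n = 12). Its log2 difference was 2.16 ± 0.53 at 3 h with an adjusted p of 0.00224, 3.85 ± 0.55 at 12 h with 2.5e-06, 4.59 ± 0.56 at 24 h with 7.23e-09 and 2.70 ± 0.54 at 72 h with 0.000115, all in edgeR. Hmox1 is also induced by oxidative stress. Of the 12 clearance genes tested, 1 was called higher and 0 lower at 3 h, 1 and 2 at 12 h, 5 and 1 at 24 h, and 3 and 0 at 72 h. Among all genes, 21.8%, 21.6%, 49.8% and 27.2% were called in either direction, in the same order.

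Hp (haptoglobin, which binds free hemoglobin) rose by 1.96 ± 0.51 at 24 h, Hpx (hemopexin, which binds free heme) by 1.18 ± 0.35 and Blvrb (a biliverdin reductase) by 1.08 ± 0.15. Cd163, the scavenger receptor for the haptoglobin complex, did not pass at any stage, with -0.23 ± 0.25 at 3 h. The correlation of Hmox1 with the globin sum over the 72 libraries was 0.06, and that of Hp was 0.36. For deviations from group means the values were 0.097 for Hmox1 and 0.52 for Hp.

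**Figure D5:**
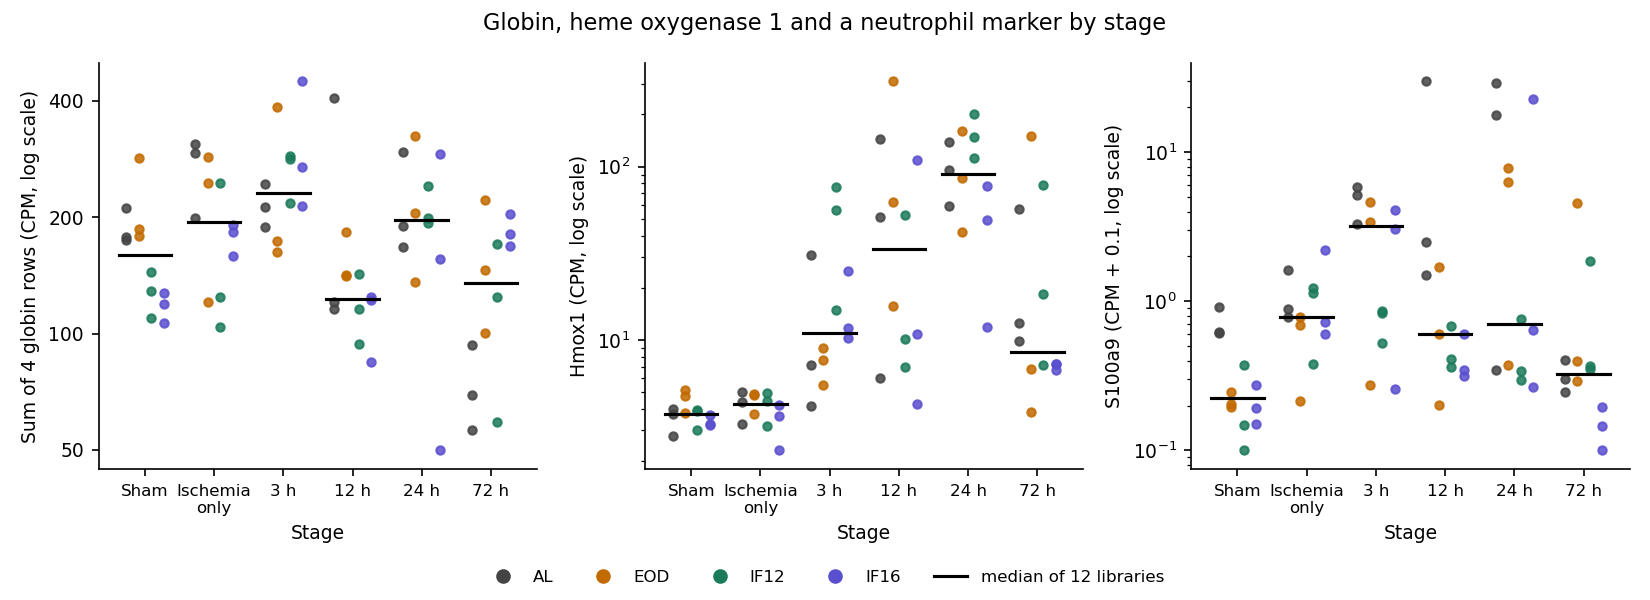
Summed level of the 4 globin rows, level of Hmox1 and level of the neutrophil marker S100a9 (after adding 0.1) in TMM-scaled CPM on log axes, by stage. Points are libraries coloured by regimen and lines are medians of 12 libraries. The globin median is highest at 3 h, that of Hmox1 at 24 h and that of S100a9 at 3 h. The mean of S100a9 is highest at 24 h.

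Among other blood cells, neutrophil markers rose at 3 h. Of 6 tested neutrophil markers, from a list of 8 each found in at least 1 library, 5 were called higher at 3 h. The median log2 difference of the 6 was 3.27. Among those called, S100a9 had 3.56 ± 0.76 with an adjusted p of 0.000471 in edgeR. Of all genes, 10.7% were called higher at 3 h. S100a9 was also called higher at 12 h, at 2.51 ± 0.82, and at 24 h, at 4.43 ± 0.77. Its mean was 2.59 ± 2.05 CPM at 3 h and 7.11 ± 10.2 CPM at 24 h (SD, n = 12). The summed neutrophil level ran from 0.0932 to 2.40 CPM in sham with a median of 0.809, and from 0.688 to 14.4 CPM at 3 h with a median of 6.71. By regimen at 3 h it ran from 6.61 to 14.4 CPM in AL, 1.00 to 10.5 in EOD, 1.37 to 2.68 in IF12 and 0.688 to 9.79 in IF16. Over the 72 libraries the Pearson correlation of log2 S100a9 with the log2 globin sum was 0.43, and 0.45 for deviations from group means. These values are a description only, and whether neutrophil levels went with those of globin was not tested.

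No marker of circulating monocytes (4 tested), T cells (1 tested) or B cells (3 tested) was called at 3 h in edgeR, with median log2 differences of 0.55, -0.09 and -0.24. Of 5 tested platelet markers, from a list of 8, 1 was called higher at 3 h, namely Pf4 at 1.59 ± 0.46 with an adjusted p of 0.00901 in edgeR. Pf4 was also called higher at 12, 24 and 72 h, at 1.41 ± 0.46, 2.26 ± 0.45 and 2.79 ± 0.45. The summed platelet level ran from 3.63 to 6.44 CPM in sham and from 5.59 to 9.15 CPM at 3 h. Of 9 endothelial markers 1 was called higher and 2 lower at 3 h, with a summed level of 277 to 358 CPM in sham and 257 to 394 CPM at 3 h. Of 7 markers of striatal neurons 5 were called lower at 3 h and 7 at 12, 24 and 72 h. Of all genes, 10.7% were called higher at 3 h, and 11.1%, 9.82%, 24.3% and 11% were called lower at these stages, in order. The summed striatal level was 588 to 2683 CPM in sham and 281 to 1658 CPM at 3 h. The part of these cell types, of blood held in the tissue and of where the section was cut in the globin results was not tested.

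In AL mice at 72 h, where 3 globin genes fell, the platelet sum ran from 6.37 to 10.9 CPM against 5.62 to 6.44 CPM in sham, the neutrophil sum from 0.453 to 1.84 CPM against 0.787 to 2.40 CPM, and the endothelial sum from 351 to 741 CPM against 305 to 358 CPM. The striatal sum ran from 292 to 463 CPM against 1082 to 2683 CPM. In IF16 mice at 72 h, with no globin call, the striatal sum ran from 224 to 1621 CPM and the endothelial sum from 261 to 349 CPM. The part of these differences in the globin values was not tested.

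Replicate 1 of AL at 12 h stood apart in several of these measures. Its Hbb-bs level was 186 CPM against 62.5 and 54.1 CPM in the other AL libraries of the stage, Hba-a1 112 CPM against 27.9 and 30.4 CPM, and Alas2 5.06 CPM against 1.44 and 2.16 CPM. It also had the most S100a9 of all libraries, at 29.7 CPM against 1.39 and 2.39 CPM. Without it the average log2 differences at 12 h were -0.29 for Hbb-bs and -0.37 for Hba-a1, again with no call in edgeR.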

How the data were processed

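Per the labels' protocols, messenger RNA of brain tissue with an RNA integrity number above the submitters' limit was sequenced on an Illumina HiSeq instrument. The authors deposited whole-number counts per Ensembl gene and FPKM values for the same libraries. CASAVA, TopHat2 and DESeq2, with the builds GRCm38 and mm10, are named in the submitters' processing notes without roles, and the counting rule is not given in the sources used here. The deposited FPKM equalled count over length and library total to within a relative 1.8e-07. Symbols came from the GENCODE annotation of GRCm38 for 34490 of 35275 identifiers. Promoters came from RefSeq, whose start sites differ from the annotation's gene bounds.

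Counts were scaled by TMM, filtered with filterByExpr and tested with edgeR 4.0.16 in R 4.3.3 (glmQLFit and glmQLFTest, 2-sided), with Benjamini-Hochberg adjustment over all genes of a contrast and a threshold of 0.05. Averages over regimens or stages and interactions came from 1 fit of 72 libraries with 24 group means and 48 residual degrees of freedom. Stages within a regimen used its 18 libraries, and regimens within a stage its 12. The SE is the log2 fold change divided by the root of F. Correlations used log2 CPM with a prior count of 2, and shares have Wilson 95% intervals. The scripts were tested on simulated data.

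The members and gene lists were chosen with earlier results of these data known. The text names the 5 members and up to 4 called genes per background list by largest log2 change. It also names a few fixed leading genes and the 10 other genes most correlated with the globin sum. Genes listed near 0, Sptb, Dmtn and Klf1 were named after their values were seen. S100a9 was named outside these rules. Alternatives were DESeq2 1.42.0, DESeq2 size factors, no filter, a replicate block, paralogs summed, other sets of libraries in the fit and leaving out each library. Leaving out the 5 libraries that stand apart was chosen after seeing the data, from the members' own values. A few genes of the background lists are not reported here by name.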

Additional observations from a re-analysis of the deposited data

How the results depend on the processing

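Counts of member calls are given as higher and lower. For stages averaged over regimens (4 and 0) DESeq2 gave 5 and 0, summed paralogs 2 and 0 of 15 tests, a fit of only the groups compared 5 and 1, and the fit without the 5 libraries that stand apart 4 and 1. Leaving out 1 library gave 1 to 5 higher and 0 to 1 lower. For stages within a regimen (5 and 3) the counts were 9 and 4 with no filter, 10 and 4 with DESeq2, 5 and 2 with DESeq2 size factors, 2 and 1 with the replicate block, 3 and 2 with summed paralogs, 3 and 3 when all 72 libraries were fitted together, 17 and 4 when the groups compared were fitted alone, and 3 and 5 without the 5 libraries. Leaving out 1 library gave 2 to 7 and 0 to 3. For regimens within a stage (0 and 0) they were 0 and 1 with no filter, 0 and 3 with DESeq2, 0 and 2 with the replicate block, 1 and 0 with all 72 libraries, 5 and 1 with only the groups compared, and 0 and 0 to 3 on leaving out 1 library. The other 3 families stayed at 0 in every alternative run. Signs reversed for differences near 0. Hbb-bt after ischemia alone ran from -0.019 to 0.19 on leaving out 1 library, and at 24 h from -0.11 to 0.094, with -0.011 without a filter. Differences from AL averaged over stages reversed without the 5 libraries, to 0.024 for Alas2 and 0.012 for Hba-a2 in IF12 and to 0.070 for Hba-a1, 0.072 for Hbb-bt and 0.13 for Hba-a2 in IF16. On leaving out 1 library Hba-a1 in EOD ran from -0.011 to 0.23, and in IF16 Hba-a1 ran from -0.22 to 0.055, Hba-a2 from -0.19 to 0.090, Hbb-bt from -0.081 to 0.060 and Alas2 from -0.0077 to 0.23. The cause of these changes was not tested. Same-numbered libraries did not deviate together, with mean correlations of -0.02 within stages and -0.02 within regimens, and the labels do not pair them. Leaving out libraries was not run for single interactions, and for averaged regimens and the joint interaction it was run for 24 libraries. Depth limits Alas2, with as few as 9 reads.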
